A study of Homo sapiens with 12 samples.

Results

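The 49 genes described here make up the machinery that copies DNA and part of the switch that starts it at the passage from G1 into S phase. They were listed by function and found by symbol, with earlier results of these data known, and each matched 1 of the 57820 gene entries in the files. By role they comprised 5 genes of origin recognition and licensing, 6 subunits of the MCM2-7 helicase, 8 genes of helicase activation, 8 of polymerases and primase, 7 of the clamp, the clamp loader and Okazaki fragment maturation, 3 of single-strand binding, 4 of nucleotide supply, 4 of chromatin assembly and methylation maintenance, and 4 of G1/S control.

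RNA-seq of poly(A) RNA was read in 2 human squamous carcinoma lines in which the transcription factor KLF5 was lowered or raised. BICR31, derived from a squamous carcinoma of the head and neck, received siKLF5, an siRNA against KLF5, in 3 libraries or siNC, a negative control siRNA, in 3 libraries. HCC95, derived from a squamous carcinoma of the lung, overexpressed KLF5 E419Q, a mutant form, KLF5 WT, or an empty vector, with 2 libraries each. The siRNA sequence, the vector, its promoter and the time of harvest are not stated. Nothing in the labels ties the libraries to separate cultures; p-values therefore measure spread between libraries that may be technical only. In units of the deposited normalised signal, KLF5 itself had 986, 1008 and 882 units in the siKLF5 libraries, against 2682, 2289 and 2619.6 units in the siNC libraries. This was a log2 fold change of -1.40 ± 0.09 with limma adjusted p = 7.27e-09; here and below, a log2 fold change stands with its standard error after ±. In HCC95, in CPM (counts scaled to the library's total), KLF5 had 427 and 442 CPM with E419Q, 420.0 and 404 CPM with WT, and 149.9 and 136 CPM with the empty vector, so HCC95 cells with the empty vector hold KLF5 RNA of their own. Gene counts do not separate it from the introduced forms. In TPM, a per-length unit, KLF5 had 454 and 439 with E419Q, 427 and 413 with WT, and 90.2 and 86.2 with the empty vector. The rise was larger in TPM than in CPM, and the cause of that was not tested.

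BICR31 libraries, in which 1 count was worth 7.87 to 9.12 units of signal, held an estimated 2150783 to 2296191 counts with siKLF5 and 1922358 to 1934361 with siNC; HCC95 libraries held 3074139 to 3364760 expected counts with E419Q, 3516984 to 3992553 with WT and 3455397 to 4643792 with the empty vector. The 8 squamous epithelial markers, KRT5 and TP63 among them, were present in every group, with a summed signal per library of 80010.0 to 83520.0 units with siKLF5 and 127300.0 to 131600.0 with siNC. Summed markers of other cell types differed between the BICR31 groups too: the 6 fibroblast markers summed to 1898 to 2208 units with siKLF5 and 863.6 to 948.4 with siNC, with DCN and LUM at 0 in every siKLF5 library; the 3 endothelial markers to 267.7 to 427.3 units with siKLF5 and 163.6 to 246.2 with siNC; and the 4 immune markers to 578.9 to 712.2 units with siKLF5 and 297.1 to 344.1 with siNC, with CD3E at 0 in both groups. In HCC95, in CPM, the squamous markers summed to 14150.0 to 14960.0 with E419Q, 23170.0 to 24250.0 with WT and 19630.0 to 20480.0 with the empty vector, and the fibroblast markers to 14.31 to 17.53 with E419Q, 8.015 to 8.814 with WT and 11.2 to 13.02 with the empty vector. There the endothelial markers summed to 26.35 to 28.53 with E419Q, 12.27 to 16.49 with WT and 11.41 to 14.18 with the empty vector, and the immune markers to 49.83 to 51.31 with E419Q, 47.38 to 49.12 with WT and 65.39 to 65.86 with the empty vector. LUM, KDR and CD3E were at 0 in every HCC95 library. DCN was also at 0 with E419Q and WT, and COL1A2 with WT and the empty vector. These sums hide opposite moves of single markers. Log2 fold changes of the 8 squamous markers ran between -1.37 and 0.82 for siKLF5 against siNC. Against the empty vector they ran between -1.78 and 0.96 with E419Q and between -0.66 and 0.98 with WT. The 3 fibroblast markers tested in BICR31 ran between -0.95 and 1.34. The part of these markers in the results that follow was not tested.

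In G1 the origin recognition complex, CDC6 and CDT1 load the MCM2-7 helicase onto DNA, and at S phase entry the kinase CDC7 with its subunit DBF4 and the cyclin-dependent kinases bring CDC45 and the GINS complex to it, so that the helicase unwinds DNA for the polymerases. The genes for these proteins are largely periodic: cyclin D and cyclin E kinases phosphorylate the RB protein, which frees E2F factors to transcribe them. KLF5 is a zinc finger factor of the Krüppel-like family, abundant in squamous and basal epithelia, whose family binds GC-rich sites.

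Because the members share no rule beyond function, their promoters were read for letters that such factors are known to bind. RefSeq windows (GRCh38.p14) were at hand for 42 of the 49 members, and the 250 bases upstream of the start were searched; the 50 bases past the start that the windows also hold were not. The canonical E2F spellings TTTCGCGC, TTTGGCGC, TTTCCCGC and TTTGCCGC, searched on both strands, stood in 17 of these 42 (40.5%), against 5.40% of the 10335 genes tested in BICR31 that had a window. Among the 42, they were in 15 of the 35 called lower with siKLF5 and in 2 of the 7 not called. The windows printed here are 70 bases around such a match, in 5 members that were among the 10 with the smallest adjusted p for siKLF5 against siNC, and in both members that had a match and were not called. They lie at chr6:52284878-52284947, minus strand, for MCM3; chr2:135876491-135876560, minus strand, for MCM6; chr7:100101398-100101467, minus strand, for MCM7; chr20:5126643-5126712, minus strand, for PCNA; chr18:657583-657652, plus strand, for TYMS; chr19:48170420-48170489, minus strand, for LIG1; and chr1:23531237-23531306, minus strand, for E2F2. Capitals mark the E2F letters, read 5′ to 3′ on the gene's strand, so that a match on the other strand appears in its reverse form.
MCM3: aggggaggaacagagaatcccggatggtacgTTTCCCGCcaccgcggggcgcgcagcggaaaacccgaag
MCM6: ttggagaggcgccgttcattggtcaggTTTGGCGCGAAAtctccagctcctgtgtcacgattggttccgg
MCM7: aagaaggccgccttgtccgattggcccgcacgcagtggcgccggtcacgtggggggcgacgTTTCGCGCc
PCNA: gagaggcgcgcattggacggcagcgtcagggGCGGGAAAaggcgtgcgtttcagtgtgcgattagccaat
TYMS: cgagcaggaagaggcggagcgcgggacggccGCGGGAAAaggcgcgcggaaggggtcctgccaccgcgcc
LIG1: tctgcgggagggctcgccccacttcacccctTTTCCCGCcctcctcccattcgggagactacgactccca
E2F2: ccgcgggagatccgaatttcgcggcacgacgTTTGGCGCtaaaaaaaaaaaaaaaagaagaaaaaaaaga
In MCM6 a pair of matches on opposite strands overlapped, and the match nearest the start began 9 bases upstream in MCM7, 59 in PCNA and 174 in MCM3.

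A further E2F spelling, GGCGGGAA, which shares 7 letters with the reverse form of TTTCCCGC, was in 10 of 42 members (23.8%), against 5.55% of the genes tested, and either kind in 20 (47.6%), against 9.39%. The CCAAT box, read by the factor NF-Y, was in 23 (54.8%), against 41.5%. The GC box GGGCGG was in 30 (71.4%), against 74.3%, and the KLF-type letters CCNCNCCC in 33 (78.6%), against 78.1%. The CHR spellings TTTGAA and TTCGAA, typical of genes of G2 and mitosis, were in 2 (4.76%), against 13.5%. These are matches of letters in a window, not measured binding.

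In BICR31 the set was lower with siKLF5 across nearly every role. Of the 49 members 41 passed limma's threshold (adjusted p under 0.05) as lower with siKLF5 and 0 as higher. An unadjusted p under 0.05 in limma was found for 44 members, beside 5710 of all 15710 genes tested. Over all 15710 genes tested, 10.8% were called lower and 15.3% higher (1693 and 2404 genes, which became 2129 and 2005 under quantile normalisation, where 44 members were lower), and 16.4% were called lower among the 9443 genes with a mean signal at least that of POLE2, the lowest member. The median log2 fold change of the members was -0.56, against 0.04 over all genes tested, and ran between -0.86 for CDC45 and 0.45 for GINS3. In 41 members every siKLF5 library lay below every siNC library, as in 17.5% of all genes. Together the 49 members took 0.459%, 0.478% and 0.467% of the signal in the siKLF5 libraries, against 0.704%, 0.696% and 0.683% in the siNC libraries. In such bulk RNA, fewer cells in S phase and less of each RNA per cell cannot be told apart.

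**Figure D1:**
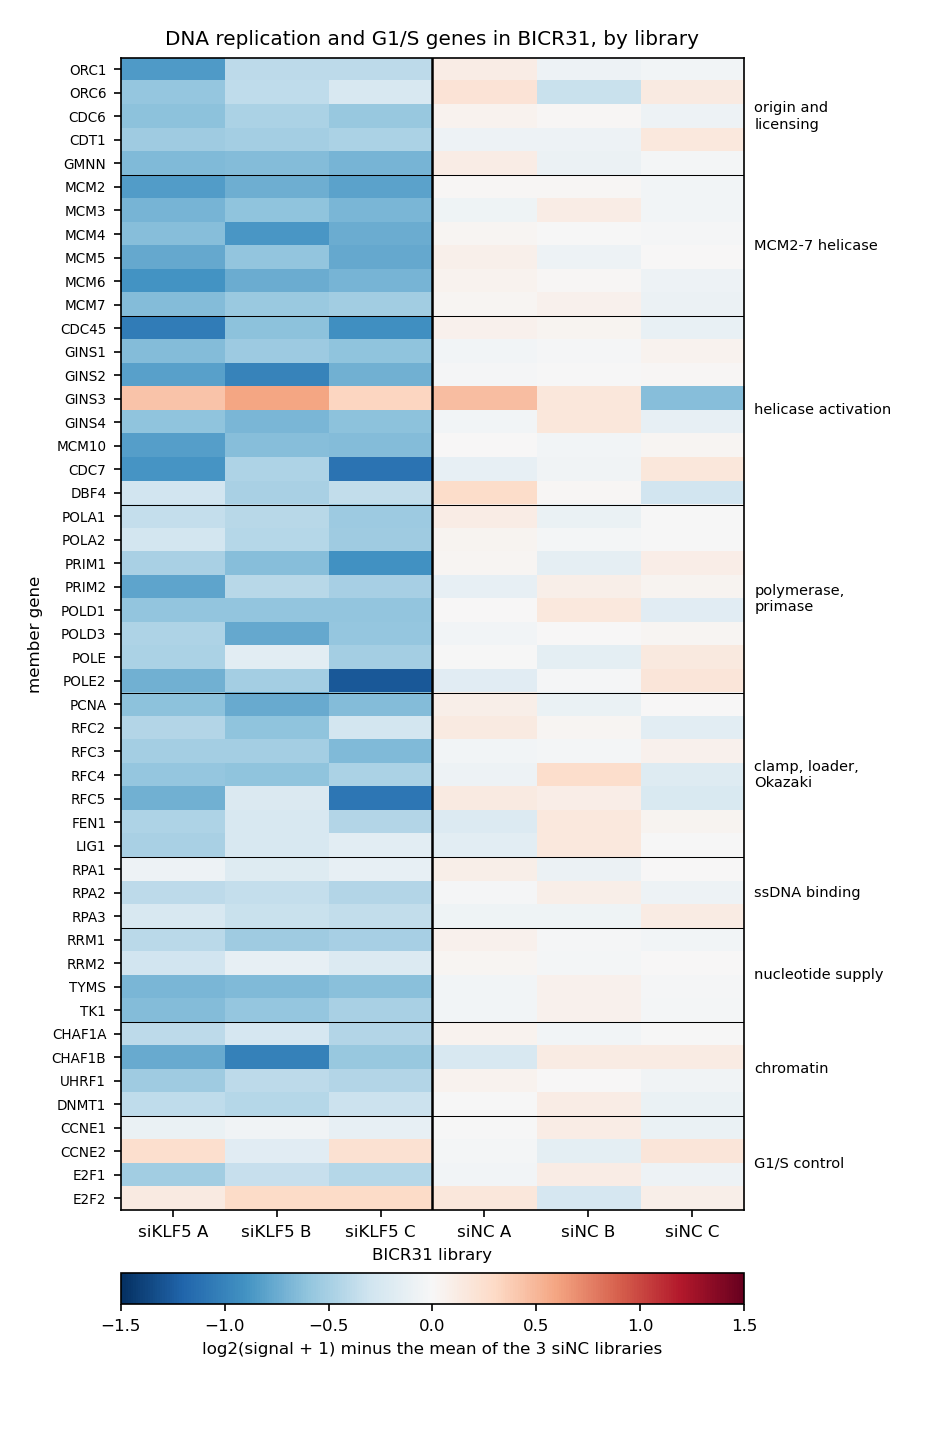
Each row is a member and each column a BICR31 library; colour gives log2(signal + 1) minus the mean of the 3 siNC libraries, on a scale that is the same for all genes. The siKLF5 columns are blue for most members, with GINS3, CCNE2 and E2F2 as exceptions, and the siNC columns are pale for most members.

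The MCM2-7 subunits, which form the hexameric core of the replicative helicase, were lower as a block: all 6 were called, with a median log2 fold change of -0.73. MCM2 had 3114, 3358 and 3189 units in the siKLF5 libraries, against 5636, 5654 and 5438 units in the siNC libraries. MCM4 had 3779.7, 3217 and 3535 units in the siKLF5 libraries, against 6027, 5882 and 5817 units in the siNC libraries. In neither gene did the groups overlap, and the log2 fold changes were -0.79 ± 0.06 for MCM2 and -0.75 ± 0.06 for MCM4 (limma adjusted p = 2.63e-08 and 1.49e-07). MCM5 had 3484, 3925 and 3472 units in the siKLF5 libraries, against 6218, 5608 and 5935 units in the siNC libraries. MCM6 had 1635, 1817 and 1882 units in the siKLF5 libraries, against 3173, 3091 and 2909 units in the siNC libraries. Both sets of libraries again stood apart, MCM5 at 61.2% and MCM6 at 58.1% of their siNC level in the fit (limma adjusted p = 3.41e-07 and 8.45e-07). MCM3 had 2679, 2842 and 2701 units in the siKLF5 libraries, against 4136, 4669 and 4200.4 units in the siNC libraries. MCM7 had 5842, 6242 and 6378 units in the siKLF5 libraries, against 9354, 9584 and 8645 units in the siNC libraries. These subunits changed by -0.66 ± 0.07 and -0.58 ± 0.05 on the log2 scale (limma adjusted p = 1.13e-06 and 4.71e-07), so all 6 subunits lay between -0.79 and -0.58.

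Of the licensing genes 4 of 5 were called lower (median log2 fold change -0.54). CDC6, the ATPase that loads MCM2-7 together with CDT1, had 5932, 6558 and 6134 units in the siKLF5 libraries, against 9491, 9246 and 8636 units in the siNC libraries. Its siKLF5 libraries all lay below its siNC libraries, with a log2 fold change of -0.56 ± 0.05 and limma adjusted p = 7.38e-07. CDT1 changed by -0.51 ± 0.09, GMNN, which encodes the CDT1 inhibitor geminin, by -0.67 ± 0.11, and ORC1, a subunit of the origin recognition complex, by -0.54 ± 0.16. ORC6, another subunit of that complex, was not called at -0.40 ± 0.16 (limma adjusted p = 0.085), and its libraries overlapped.

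Helicase activation held both the lowest and the highest fold change of the set, with 6 of 8 genes called lower. CDC45, which joins MCM2-7 and GINS in the active helicase, had 789, 1058 and 858 units in the siKLF5 libraries, against 1700.0, 1678 and 1509 units in the siNC libraries. All siKLF5 libraries were below all siNC libraries, at 55.0% of the siNC level in the fit (log2 fold change -0.86 ± 0.11, limma adjusted p = 2.01e-05). The 4 GINS subunits act as a single tetramer, and 3 of their genes were called lower: GINS2 at -0.85 ± 0.10, GINS4 at -0.63 ± 0.13 and GINS1 at -0.60 ± 0.12. GINS3 had 567, 633 and 528 units in the siKLF5 libraries, against 582, 474 and 271 units in the siNC libraries. Its groups overlapped, with siNC A above a pair of siKLF5 libraries and siNC C far below all others, and it was not called (log2 fold change 0.45 ± 0.21, limma adjusted p = 0.145). Without siNC A it was called higher, at 0.68 (limma adjusted p = 0.0302, within a range of 0.0302 to 0.623 over 10 alternatives). CDC7, the kinase that phosphorylates MCM2-7, changed by -0.82 ± 0.20, whereas its activating subunit DBF4 was at -0.38 ± 0.15 and not called (limma adjusted p = 0.082). MCM10, an activation factor of the loaded helicase, changed by -0.70 ± 0.11.

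All 8 polymerase and primase genes were called lower, with a median log2 fold change of -0.58. Primase and polymerase alpha, which lay down the primers, gave -0.68 for PRIM1, -0.57 for PRIM2, -0.44 for POLA1 and -0.41 for POLA2. Polymerase delta, the main lagging-strand enzyme, gave -0.59 for its catalytic subunit POLD1 and -0.61 for POLD3. Polymerase epsilon, the main leading-strand enzyme, gave -0.38 ± 0.10 for its catalytic subunit POLE and -0.84 ± 0.24 for POLE2. POLE had 1709, 2117 and 1661 units in the siKLF5 libraries, against 2364, 2134 and 2629 units in the siNC libraries. Its groups did not overlap, with siKLF5 B nearest the siNC libraries (limma adjusted p = 0.00885). POLE2 had the lowest signal of the set and the largest standard error.

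PCNA, the sliding clamp that tethers the polymerases, had 3402, 3067 and 3315 units in the siKLF5 libraries, against 5545, 4842 and 5230.2 units in the siNC libraries. No siKLF5 library reached a siNC library, and the log2 fold change was -0.67 ± 0.07 (limma adjusted p = 8.17e-07). The clamp loader subunits gave -0.67 for RFC5, -0.56 for RFC3, -0.56 for RFC4 and -0.44 for RFC2, and all 4 were called lower; in RFC5 the libraries overlapped. FEN1, the flap nuclease of Okazaki fragments, was called lower at -0.38 ± 0.09. LIG1, the ligase that seals them, missed the threshold at -0.30 ± 0.11 (limma adjusted p = 0.0622), although its 3 siKLF5 libraries lay below its 3 siNC libraries. Over 10 alternatives its limma adjusted p ran between 0.0333 and 0.253, and it passed with siNC A left out and under quantile normalisation. The replication protein A subunits, which coat single-stranded DNA, had the smallest median change of the roles outside G1/S control, -0.31: RPA2 gave -0.39 and RPA3 -0.31, both called, and RPA1 -0.13 (limma adjusted p = 0.155, not called).

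All 4 genes of nucleotide supply were called lower. TYMS, thymidylate synthase, had 3111, 3165 and 3243 units in the siKLF5 libraries, against 4878, 5232 and 4958 units in the siNC libraries. TK1, thymidine kinase of the salvage route, had 3089.5, 3242 and 3457 units in the siKLF5 libraries, against 4736, 5088 and 4769.5 units in the siNC libraries. In both the groups stood apart, with log2 fold changes of -0.66 ± 0.06 and -0.58 ± 0.06 (limma adjusted p = 2.73e-07 and 2.86e-06). The ribonucleotide reductase subunits changed less, RRM1 by -0.48 ± 0.06 and RRM2, the periodic subunit, by -0.21 ± 0.06, the smallest change among the 41 called. The genes that restore chromatin behind the fork were called lower as well: CHAF1B (-0.78) and CHAF1A (-0.36), subunits of the histone chaperone CAF-1, UHRF1 (-0.45), which recognises hemimethylated DNA, and DNMT1 (-0.38), the maintenance methyltransferase.

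G1/S control stood apart in its counts, with 1 of 4 genes called and a median log2 fold change of 0.01. E2F1, an activating E2F factor, was called lower at -0.43 ± 0.09 (limma adjusted p = 0.00186). E2F2, also an activating E2F, had 526, 583 and 583 units in the siKLF5 libraries, against 536, 401 and 506 units in the siNC libraries. Its libraries overlapped and it was not called, at 0.24 ± 0.15 (limma adjusted p = 0.27). The cyclin E genes, which encode the partners of CDK2 at S phase entry, were not called either, CCNE1 at -0.09 ± 0.15 and CCNE2 at 0.10 ± 0.16 (limma adjusted p = 0.707 and 0.702). The 95% intervals of these log2 fold changes ran over -0.08 to 0.55 for E2F2, -0.40 to 0.22 for CCNE1 and -0.24 to 0.44 for CCNE2. The cumulative plot of fold changes shows the members beside all genes tested in this comparison and in both HCC95 comparisons with the empty vector.

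**Figure D2:**
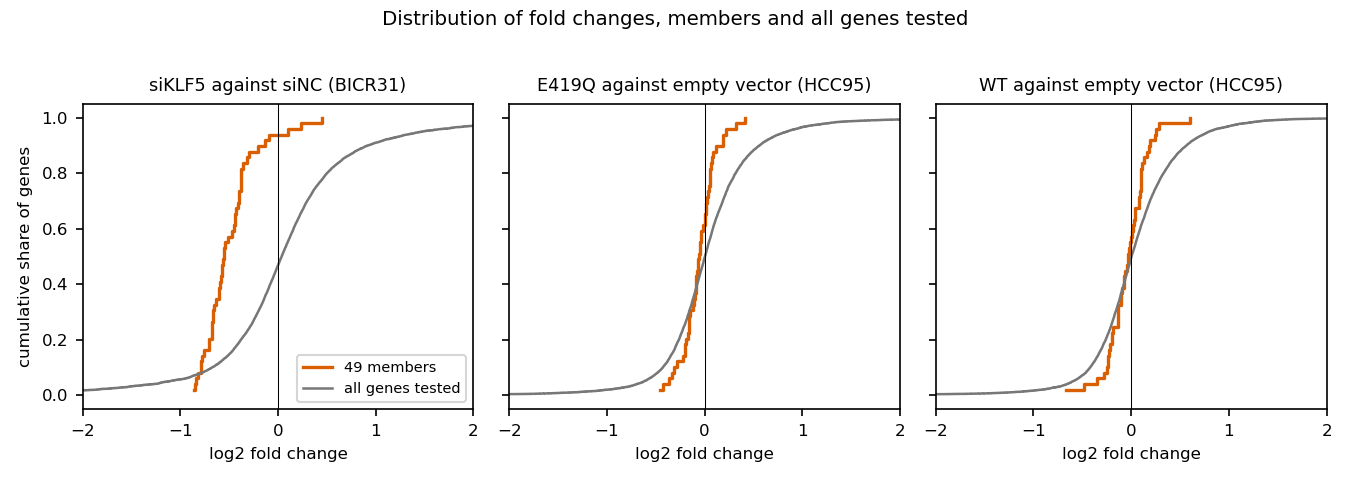
Cumulative share of genes (vertical axis, 0 to 1) at or below each log2 fold change (horizontal axis, from -2 to 2), for the 49 members in orange and all genes tested in grey. With siKLF5 the member curve lies left of the grey curve over most of its course, with a median of -0.56 against 0.04; with E419Q and with WT it crosses the grey curve near 0 and is steeper.

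Related genes outside the 49 were counted in 4 lists. Of 33 other replication factors 21 were lower with siKLF5 and 3 higher (median log2 fold change -0.41); HELLS, a chromatin remodeller, gave -0.77 and POLD2, a further polymerase delta subunit, -0.55 (limma adjusted p = 4.89e-05 and 8.34e-06), and the 3 called higher, named after their values were seen, were ASF1A, POLD4 and TOP1. Of 15 further genes of nucleotide pools 13 were lower and 0 higher (median -0.60), among them DUT at -1.10, which removes dUTP, MTHFD1 at -0.82, a folate enzyme, and CAD at -0.77, which starts pyrimidine synthesis (limma adjusted p = 1.06e-05, 6.92e-08 and 5.01e-06); 13 had an unadjusted p under 0.05. Of 30 G2/M genes 19 were lower and 0 higher, with a smaller median of -0.28; CDC20, an activator of the anaphase-promoting complex, gave -0.52 and PLK1, a mitotic kinase, -0.41 (limma adjusted p = 6.76e-06 and 6.5e-05).

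Genes upstream of the switch moved in both directions. Of 29 G1/S regulators tested 8 were higher and 13 lower with siKLF5. CDKN1A, which encodes the CDK inhibitor p21, had 4774, 4683 and 4811 units in the siKLF5 libraries, against 1682, 1578 and 1897 units in the siNC libraries. CDKN2B, which encodes the CDK4 and CDK6 inhibitor p15, had 1438, 1308 and 1259.8 units in the siKLF5 libraries, against 445, 483 and 388 units in the siNC libraries. In both the siKLF5 libraries were far above the siNC libraries, with log2 fold changes of 1.47 ± 0.07 and 1.61 ± 0.12 (limma adjusted p = 2.19e-10 and 4.29e-08). CDKN1B, which encodes the inhibitor p27, was higher at 0.63 ± 0.12 and E2F3, an activating E2F, at 0.65 ± 0.12 (limma adjusted p = 0.000752 and 0.000826). CCND1, which encodes cyclin D1, had 34021, 33985 and 33335 units in the siKLF5 libraries, against 45419, 45127 and 45571 units in the siNC libraries, a log2 fold change of -0.43 ± 0.03 (limma adjusted p = 8.79e-09). CCND2, cyclin D2, was lower at -0.79 ± 0.11 and TFDP1, the partner that E2F factors bind DNA with, at -0.57 ± 0.06 (limma adjusted p = 4.32e-05 and 2.37e-06). CCND3, cyclin D3, named after its values were seen, was called higher in 10 of 10 alternatives, at 0.75 to 0.85. E2F8, a repressive E2F, was lower at -0.44 ± 0.14, a call that held in 5 of 10 alternatives, and E2F7, its close relative, and RB1 were not called at -0.03 ± 0.13 and -0.25 ± 0.12 (limma adjusted p = 0.028, 0.892 and 0.162).

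**Figure D3:**
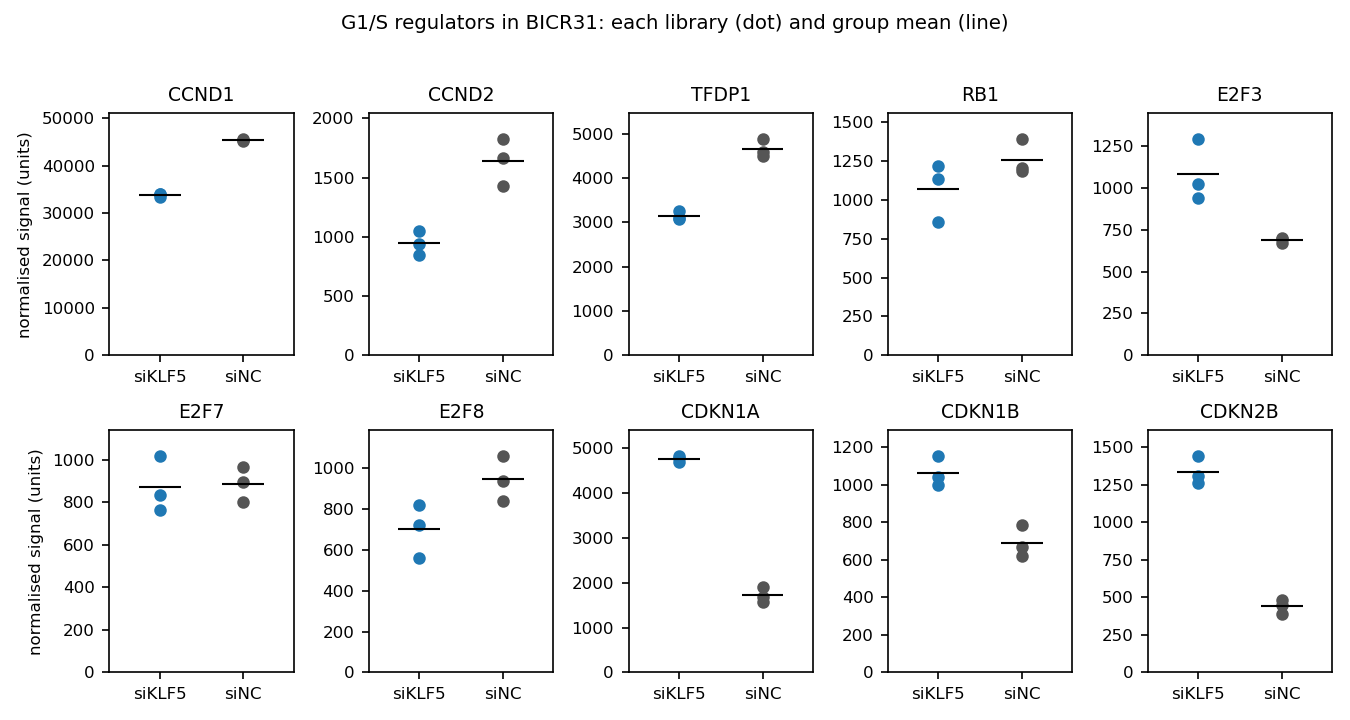
Deposited normalised signal (vertical axes, from 0) of 10 G1/S regulators in BICR31, siKLF5 left and siNC right, with a dot per library and a line at the group mean. CDKN1A, CDKN1B, CDKN2B and E2F3 have all siKLF5 dots above all siNC dots, CCND1, CCND2, TFDP1 and E2F8 have them below, and RB1 and E2F7 overlap.

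In HCC95, KLF5 RNA was higher with both forms, and most members were not called. With E419Q 3 members were called higher and 3 lower of 49, and with WT likewise 3 higher and 3 lower, by edgeR's quasi-likelihood test at adjusted p under 0.05. Over all 12933 genes tested, 10.4% were called higher and 10.8% lower with E419Q, and 10.8% higher and 12.1% lower with WT, and the members' counts were no larger a share than these. The median log2 fold change of the members was -0.06 with E419Q and -0.03 with WT, and 10 members had an unadjusted p under 0.05 in each comparison. Over all 12933 genes tested, edgeR's unadjusted p was under 0.05 for 4270 with E419Q and for 4499 with WT. The members took 0.648% and 0.647% of counts with E419Q, 0.656% and 0.645% with WT, and 0.619% and 0.671% with the empty vector, so the empty-vector libraries A and B were the lowest and the highest of the 6. Both comparisons use the same empty-vector libraries and are therefore not independent.

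LIG1 and E2F2 gave the largest log2 fold changes with WT. LIG1 had 75.5 and 75.2 CPM with E419Q, 88.7 and 81.4 CPM with WT and 49.2 and 60.3 CPM with the empty vector. Every library of both KLF5 forms was above both empty-vector libraries, with log2 fold changes of 0.41 ± 0.11 for E419Q and 0.61 ± 0.11 for WT (edgeR adjusted p = 0.00861 and 0.000196). E2F2 had 29.3 and 27.6 CPM with E419Q, 23.3 and 24.0 CPM with WT and 37.3 and 37.5 CPM with the empty vector, on 82.0 to 174.0 counts per library. It was lower with both forms, at -0.43 ± 0.13 and -0.67 ± 0.13 (edgeR adjusted p = 0.025 for E419Q and 0.000856 for WT). With WT both calls held in DESeq2 and with each library left out in turn.

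CDC45 was the 1 member called in the same direction in BICR31 with siKLF5 and in HCC95 with both forms of KLF5. CDC45 had 40.0 and 47.0 CPM with E419Q, 42.4 and 42.3 CPM with WT and 49.2 and 66.3 CPM with the empty vector. Both empty-vector libraries were above every library of either KLF5 form, with empty-vector B well above A, and the log2 fold changes were -0.46 ± 0.13 for E419Q and -0.48 ± 0.13 for WT (edgeR adjusted p = 0.0168 and 0.00983). Without empty-vector B neither call held, at -0.21 for E419Q and -0.23 for WT (edgeR adjusted p = 0.384 and 0.308, the highest over 11 alternatives in each comparison). MCM6 had 158 and 159 CPM with E419Q, 132 and 138 CPM with WT and 116 and 131 CPM with the empty vector. MCM3 had 424 and 424 CPM with E419Q, 414 and 406 CPM with WT and 361 and 368 CPM with the empty vector. Both helicase subunits were called higher with E419Q, at 0.32 ± 0.08 and 0.19 ± 0.06, and not with WT, at 0.11 ± 0.08 and 0.16 ± 0.06 (edgeR adjusted p = 0.00537 and 0.024 for E419Q, 0.367 and 0.0529 for WT). The direct test of E419Q against WT called neither (edgeR adjusted p = 0.119 and 0.856).

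RFC5 had 42.0 and 47.6 CPM with E419Q, 53.2 and 54.1 CPM with WT and 53.8 and 59.0 CPM with the empty vector, and was called lower with E419Q at -0.37 ± 0.11 (edgeR adjusted p = 0.0234). POLE had 106 and 114 CPM with E419Q, 123 and 124 CPM with WT and 102 and 103 CPM with the empty vector, and was called higher with WT at 0.26 ± 0.08 (edgeR adjusted p = 0.0254). The groups compared were apart in both genes, by small margins in CPM. TK1 had 382 and 338 CPM with E419Q, 367 and 345 CPM with WT and 306 and 313 CPM with the empty vector. RRM2 had 188 and 205 CPM with E419Q, 179.7 and 189.6 CPM with WT and 195 and 234 CPM with the empty vector. Of these nucleotide genes, TK1 was called higher with WT at 0.19 ± 0.07 and RRM2 lower at -0.23 ± 0.08 (edgeR adjusted p = 0.0452 and 0.0397). DESeq2 called none of the 6 members with E419Q, and with WT it called LIG1 and E2F2 and no other member.

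**Figure D4:**
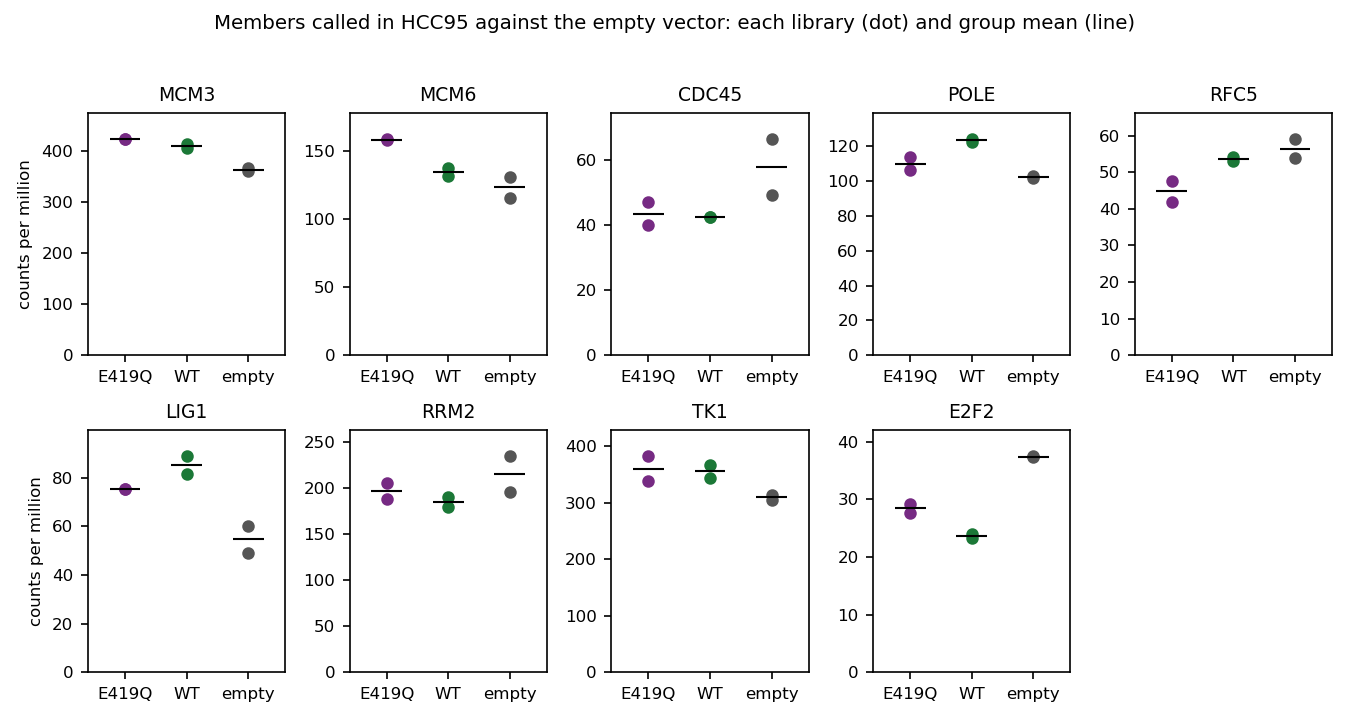
CPM (vertical axes, from 0) in the 6 HCC95 libraries for the 9 members called in either comparison with the empty vector; dots are libraries and lines group means, with E419Q left, WT in the middle and the empty vector right. LIG1, MCM3, MCM6, POLE and TK1 have their lowest mean with the empty vector, and CDC45, RFC5, RRM2 and E2F2 their highest.

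The 2 forms were also compared with each other. E419Q against WT gave 0 of 49 members called by edgeR and 0 by DESeq2, beside 3.59% of all genes called lower and 4.41% higher by edgeR. An unadjusted p under 0.05 in edgeR was found for 6 members, beside 2460 of all 12933 genes tested. Log2 fold changes of the members ran between -0.34 for CDC7 and 0.24, with a median of -0.02. The 95% interval lay inside ±0.5 on the log2 scale for 42 of 49 members and inside ±1 for all 49, so a difference of more than 1 log2 unit lay outside every interval. MCM2 (-0.19 ± 0.07, edgeR adjusted p = 0.123) and MCM6 (0.22 ± 0.08, edgeR adjusted p = 0.119) came nearest to the threshold. Against the empty vector, the interval lay inside ±0.5 for 41 members with E419Q and 39 with WT, and inside ±1 for all 49 in both. KLF5 RNA itself did not pass the test between the forms, at 0.06 ± 0.06 (edgeR adjusted p = 0.683).

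Set side by side, 34 of the 49 members were called lower with siKLF5 in BICR31 and not called with either form in HCC95, and 6 were called nowhere. A further 4 were lower with siKLF5 and higher with 1 of the forms, POLE and TK1 with WT and MCM3 and MCM6 with E419Q. Another 3 were lower with siKLF5 and also lower in HCC95, CDC45 with both forms, RRM2 with WT and RFC5 with E419Q. The remaining 2, LIG1 and E2F2, were called in HCC95 alone, with both forms. The lines, the agents and the units differ, and the difference between the 2 lines was not tested. The plot of intervals shows the 3 comparisons side by side.

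**Figure D5:**
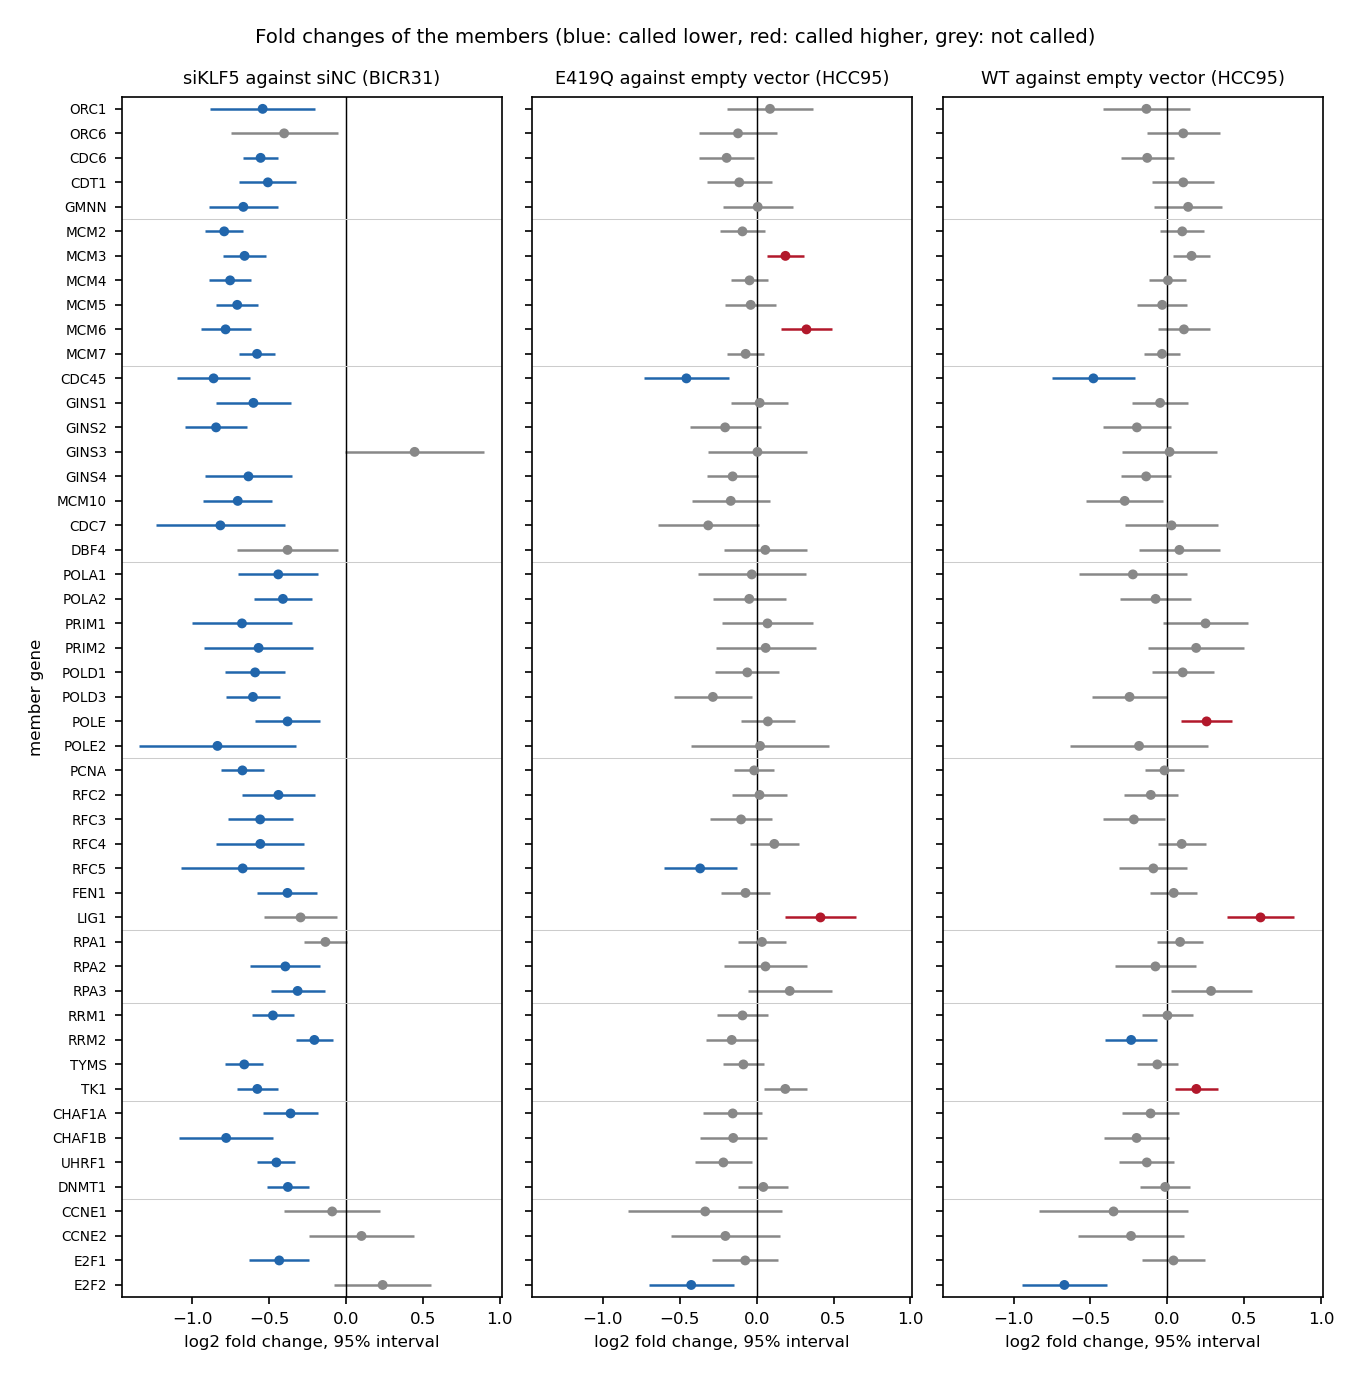
Log2 fold change (points) with its 95% interval (lines) of each member, by role from top to bottom, for siKLF5 against siNC in BICR31 and for E419Q and WT against the empty vector in HCC95; blue marks members called lower, red called higher and grey not called. In the siKLF5 panel 41 points are blue and none red, and each HCC95 panel has 3 blue and 3 red points.

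Role by role, the medians in HCC95 lay between -0.27 for G1/S control and 0.06 for single-strand binding with E419Q, and between -0.29 for G1/S control and 0.10 for licensing with WT. The companion lists differed among themselves. G2/M genes were called higher in 9 of 30 with E419Q and 12 of 30 with WT, and lower in 0 in both by edgeR, with 15 and 16 at an unadjusted p under 0.05; TOP2A, a topoisomerase of mitotic chromosomes, gave 0.37 and 0.50, and NUSAP1, a spindle protein, 0.39 and 0.55 (edgeR adjusted p = 4.8e-05 and 9.85e-07 for TOP2A, 0.000827 and 1.11e-05 for NUSAP1). Of the 33 other replication factors 3 were lower and 0 higher with E419Q, and 4 lower and 0 higher with WT. Over all genes tested, 10.8% were lower and 10.4% higher with E419Q, and 12.1% lower and 10.8% higher with WT. The lower counts of the other replication factors were near these shares. Of the 15 genes of nucleotide pools 6 were lower and 1 higher with E419Q, and 5 lower and 1 higher with WT, CTPS1, a CTP synthase, at -0.66 and -0.92. Of 27 G1/S regulators 7 were lower and 1 higher with E419Q, and 7 lower and 3 higher with WT.

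Among these regulators CDKN1A had 46.5 and 38.3 CPM with E419Q, 58.0 and 56.9 CPM with WT and 81.3 and 63.5 CPM with the empty vector. It was called lower with both forms, at -0.79 ± 0.13 and -0.33 ± 0.12 (edgeR adjusted p = 9.57e-05 for E419Q and 0.0471 for WT), and lower with E419Q than with WT, at -0.46 ± 0.13 (edgeR adjusted p = 0.0368); the calls held in 11 of 11 alternatives with E419Q, 4 of 11 with WT and 6 of 11 between the forms. CDKN1B was higher with WT at 0.34 ± 0.10 (edgeR adjusted p = 0.0191) and not called with E419Q, at -0.06 ± 0.11. CCND1 was lower with E419Q at -0.26 ± 0.06 (edgeR adjusted p = 0.00524) and not called with WT, at -0.03 ± 0.06. Further regulators, named after their values were seen, are given as ranges of log2 fold change over 11 alternatives. With WT, CDK6 gave -0.87 to -0.79, CCND3 -0.98 to -0.63, CDK4 -0.53 to -0.29 and RBL2 0.61 to 0.75. With E419Q, CDK6 gave -0.28 to -0.13, CCND3 -0.34 to 0.05, CDK4 -0.46 to -0.31 and RBL2 0.28 to 0.54. Every alternative called each of these genes with WT. For E419Q, every alternative called CDK4, most called RBL2, and none called CDK6 or CCND3. RB1, E2F3, E2F7 and E2F8 were not called in HCC95: with E419Q they gave -0.09, -0.14, -0.03 and 0.13, and with WT -0.20, -0.18, 0.02 and -0.01. Between the forms, 2 of the 27 were higher and 5 lower with E419Q than with WT.

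Levels could be compared between genes in HCC95, where TPM, a per-length unit, was deposited. Over the 6 libraries the median TPM was highest for MCM7, at 511.9, followed by PCNA at 464.5, TYMS at 365.7 and TK1 at 359.1, and lowest for POLA1 at 8.09, with E2F2 next at 8.81. MCM7 (485.4 to 546.5) was above PCNA (443.9 to 493.9) within each of the 6 libraries, whereas TYMS (351.7 to 400.1) and TK1 (340.3 to 392.2) changed places between libraries. Within MCM2-7, whose subunits join in equal number, median TPM differed between 54.5 for MCM6 and 511.9 for MCM7, on 6 libraries each. Among the licensing factors the median TPM was 101.1 for CDC6, 49.6 for CDT1 and 19.5 for ORC1.

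Some counts may be shared with neighbours. Exon positions came from a GENCODE annotation, which need not be the one used for counting. By these, 17 of 48 matched members overlap exons of a gene on the opposite strand, TYMS with ENOSF1 and MCM7 with AP4M1 among them. On their own strand 8 overlap exons, such as PRIM1 with NACA. Whether counting used strand was not given in the sources used here. It is therefore not known whether reads in a stretch shared with an opposite-strand gene were kept apart. In same-strand pairs, strand does not separate reads in the shared stretch. PRIM2 has a partial copy elsewhere in the genome, and its values are uncertain for that reason.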

How the data were processed

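RNA-seq was read in 6 BICR31 and 6 HCC95 libraries; groups and replicate letters came from the labels. Per the submitters' processing notes, STAR aligned the reads to hg19 and RSEM counted them per gene; the notes also name edgeR and limma for HCC95. The BICR31 files hold a deposited normalised signal; its scaling by the authors is not given in the sources. Their first line, where a header had become a number, was dropped. The HCC95 files hold expected counts and TPM as the authors deposited them, per the file headers. TPM served to compare levels between genes and, for KLF5, between groups, and the FPKM column was not used.

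BICR31 was tested with limma 3.58.1 on log2(signal + 1) with a mean-variance trend, over 15710 genes with a mean signal of at least 10. HCC95 expected counts were rounded and tested with edgeR 4.0.16 (TMM, filterByExpr, quasi-likelihood, all 6 libraries) over 12933 genes, with R 4.3.3. CPM is the expected count, without rounding, relative to the library's total. All p-values are two-sided and were adjusted by Benjamini-Hochberg over every gene tested, with a threshold of 0.05. Both fits were tested on simulated data. Alternatives were another pseudocount, quantile normalisation, other scaling, DESeq2 1.42.0, no filter, the compared groups alone, a replicate block and each library left out.

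Members and companion lists were chosen with earlier results of these data known, so no test was made over a list. Values of every library are given for KLF5, for up to 10 members with the smallest adjusted p in each comparison, and for members called in all 3 comparisons with a control or in opposite directions; further members were written out where they were not called. Of each companion list up to 5 genes with the smallest adjusted p were open to naming, and CDKN1A, CDKN1B, CCND1, RB1, E2F3, E2F7 and E2F8 are given whether or not they passed. Libraries of a group differed by more than sampling noise and were counted apart. Letters in promoters were searched in RefSeq windows of GRCh38.p14. 1 marker of the immune list is not reported here.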

Additional observations from a re-analysis of the deposited data

Results flagged for a closer look

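No member was called between E419Q and WT, but 12 genes of the companion lists were, by edgeR at adjusted p under 0.05. Each is a difference between the 2 forms in a direct test, not one measured against the empty-vector libraries. The lists tested held 33 other replication factors, 15 genes of nucleotide pools, 27 G1/S regulators and 30 G2/M genes. Over all 12933 genes tested, edgeR called 3.59% lower and 4.41% higher with E419Q than with WT. Among G1/S regulators the log2 fold change of E419Q against WT was -0.61 for CCND2, -0.46 for CDKN1A, -0.40 for CDKN1B, -0.32 for MYC and -0.23 for CCND1, all lower with E419Q, and 0.67 for CCND3 and 0.63 for CDK6, both higher. Among genes of nucleotide pools it was -0.30 for IMPDH2 and -0.23 for SHMT2, among other replication factors -0.27 for POLD2 and 0.39 for TOP1, and among G2/M genes -0.19 for MKI67. DESeq2 also called 5 of the 12, CCND2, CCND3, CDK6, MYC and TOP1; CCND2, CDK6 and TOP1 held their calls in 11 of 11 alternatives, and each of the other 9 lost its call with at least 1 library left out.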

How the results depend on the processing

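For siKLF5 against siNC, the members called lower numbered 41 to 44 under another pseudocount, no filter on low values, quantile normalisation (44) and the replicate block (42), and 36 to 41 with a library left out; those called higher numbered 0 under all of these except 1, GINS3, without siNC A (range 0 to 1). Calls that ended when a library was left out were those of ORC1 (siKLF5 A or siNC A), POLA1 (siKLF5 C or siNC A), POLE (siKLF5 A or C, or siNC C), POLE2 (siKLF5 C or siNC C), PRIM2 (siKLF5 A, or siNC B or C), RFC5 (siKLF5 A or C, or siNC A or B), RPA2 (siNC B), RPA3 (siNC C) and RRM2 (siKLF5 A), with limma adjusted p between 0.0512 and 0.099. In HCC95 the calls were fewer in DESeq2: with WT 1 member higher and 1 lower, with E419Q 0 and 0. Over all genes DESeq2 called 508 higher and 642 lower with WT (1394 and 1568 in edgeR), 573 and 596 with E419Q (1340 and 1397), and 270 and 197 for E419Q against WT (570 and 464). With a library left out, where the lone library of a group is assumed to vary like the other groups, members called with WT numbered 1 to 3 higher and 1 to 5 lower, and with E419Q 0 to 3 higher and 0 to 5 lower. Over all genes these ranges were 785 to 1322 higher and 934 to 1471 lower with WT, 822 to 1255 and 804 to 1348 with E419Q, and 341 to 637 and 249 to 536 for E419Q against WT; 0 members were called between the forms in every alternative. The lower members numbered 5 without empty-vector A in both comparisons, and without empty-vector B 1 with WT and 0 with E419Q. With WT the calls of CDC45, POLE, RRM2 and TK1 ended without WT A, WT B or empty-vector B, POLE and TK1 also without empty-vector A, and RRM2 also without either E419Q library or with only the compared groups. With E419Q, CDC45 and RFC5 lost their calls without E419Q A or empty-vector B, MCM6 without E419Q B or empty-vector A, LIG1 without either E419Q library or empty-vector A, and E2F2 and MCM3 without any of these 4 libraries, MCM3 also with no filter. The median of the members with WT was -0.084 without empty-vector A and changed sign to 0.035 without empty-vector B, beside -0.03 with all libraries. The cause of these changes was not tested. Over all genes tested, libraries with the same letter did not deviate together (correlations of 0.026, -0.0017 and 0.00062 in BICR31, and -0.034 to 0.025 in HCC95). No pairing by letter was seen, but counting noise in each deviation could hide a weak one, so it is not excluded. With the replicate block, 3 members were higher and 3 lower with each form, and LIG1 was added to the calls with siKLF5. Depth limits the members with few counts, POLE2 and CDC7 in BICR31 and CCNE1, POLE2 and CCNE2 in HCC95, and intervals in HCC95 rest on 2 libraries a group.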
